A study of Homo sapiens with 12 samples.

Results

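The aryl hydrocarbon receptor (AHR) battery was examined as 10 genes picked by symbol from the deposited expression table, namely the receptor AHR, its partner ARNT, the repressor AHRR, the target genes CYP1A1, CYP1A2, CYP1B1, TIPARP, ALDH3A1 and UGT1A6, and the stress regulator NFE2L1. They took 11 of the 60662 entries of the table, because AHRR is listed under 2 gene identifiers. Of these, 8 entries of 7 genes reached at least 0.5 TPM (a length-corrected share of the transcripts of a library) in at least 4 of the 12 samples and entered the test of 16815 genes, while CYP1A2, ALDH3A1 and UGT1A6 stayed under that level. CYP1B1 passed the filter through its 4 CJ28 samples alone, since 0 of the VEH and MET samples reached 0.5 TPM.

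The AHR is a transcription factor that waits in the cytosol in a complex with heat shock protein chaperones. After binding a flat aromatic ligand, such as a dioxin, it enters the nucleus, pairs with ARNT and binds short DNA motifs called dioxin response elements near its target genes. CYP1A1 is the classical readout of this pathway, and AHRR and TIPARP are targets that in turn restrain the receptor. In the adrenal cortex the pathway is best known from work on pollutants that disturb steroid hormone synthesis.

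RNA-seq was performed on NCI-H295R cells, a single cortisol-secreting line from a human carcinoma of the adrenal cortex, so the values describe this line and not normal adrenal tissue. The design has 3 groups of 4 samples, which the submitters describe as biological replicates. CJ28, a benzimidazolylurea, and MET, the cortisol-lowering drug metyrapone, were each given at 30 µM, and the VEH group received the solvent DMSO at 0.1%. Exposure lasted 24 h in each group and began after 12 h of serum withdrawal, when the cell layer was confluent. The study set both inhibitors of cortisol synthesis against the vehicle, and the comparisons of CJ28 and of MET with VEH share the same VEH samples.

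The table lists 29463 to 31016 genes above 0 per sample and holds no depth, so no counting interval can be given for a single value. TPM divides by transcript length, so it can be compared between genes. The 12 markers of the adrenal cortex listed for this check summed to 328 to 344 TPM in VEH, 329 to 346 in MET and 158 to 164 in CJ28. CYP11B1, which makes cortisol from its last precursor, did not exceed 0.05 TPM in any sample. In CJ28 10 of the 11 tested markers were lower than in VEH and NR0B1 was higher. Of all tested genes 57.0% were called in this comparison and 19.9% were higher. The part of this shift of the markers in the values below was not tested. Marker sums did not exceed 1.08 TPM for hepatocytes, 1.41 for fibroblasts, 1.17 for chromaffin cells, 0.06 for endothelial cells and 0.53 for leukocytes, and the chromaffin enzyme TH was at 0 in all samples. TPM is a share of each library, and against VEH the tested genes as a whole had a median change of -0.134 in CJ28 and -0.0259 in MET on the log2 scale. After median-of-ratios scaling between samples these medians were 0.0136 and 0.00422, and the share of called genes that were higher in CJ28 moved from 34.9% to 52.6%.

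The DNA upstream of these genes was read for the dioxin response element before turning to the RNA. The motif was searched on both strands as the core GCGTG and as the longer TNGCGTG, which contains the core. In the 300-base RefSeq promoter windows (GRCh38.p14, 250 bases before to 50 after a transcription start), GCGTG occurred in 36.5% of 35116 windows and TNGCGTG in 5.51%. The windows of CYP1A1 and AHR each had 1 GCGTG and 0 TNGCGTG, and the first listed start of TIPARP had 2 GCGTG. The first listed starts of AHRR and UGT1A6 each had 1 TNGCGTG, whereas those of ARNT, CYP1A2 and NFE2L1 had neither. An antioxidant response element, TGACNNNGC, occurred in 13.3% of windows, among them once in that of ARNT and once in that of the other listed start of UGT1A6. CYP1B1 and ALDH3A1 had no entry in the promoter table.

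A scan of the 2000 bases before each start found 5 copies of TNGCGTG upstream of CYP1A1, at positions -1385, -1061, -986, -898 and -503 from the start. At least 5 copies were present at 0.0544% of 34930 RefSeq starts, and at least 1 copy at 28.6%. ARNT had 2 copies, AHRR, TIPARP and UGT1A6 had 1 each at their first listed start, and AHR, CYP1A2 and NFE2L1 had 0. The sequences that follow show the stretch with 3 of the CYP1A1 copies and the stretches around the single copies of AHRR, TIPARP and UGT1A6, 2 genes whose RNA rose in CJ28 and 1 whose RNA did not reach the filter. Each is written 5′ to 3′ on the strand of its gene, and capitals mark TNGCGTG or its reverse complement.
CYP1A1, chr15:74726405-74726604, minus strand, GRCh38: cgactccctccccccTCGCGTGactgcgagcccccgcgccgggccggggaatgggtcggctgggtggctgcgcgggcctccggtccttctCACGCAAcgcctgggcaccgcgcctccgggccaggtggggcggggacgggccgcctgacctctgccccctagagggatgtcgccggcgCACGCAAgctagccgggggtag
AHRR, chr5:321514-321713, plus strand, GRCh38: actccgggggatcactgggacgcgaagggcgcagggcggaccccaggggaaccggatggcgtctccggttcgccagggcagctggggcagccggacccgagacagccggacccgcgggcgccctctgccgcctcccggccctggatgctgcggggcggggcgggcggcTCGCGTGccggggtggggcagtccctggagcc
TIPARP, chr3:156672963-156673162, plus strand, GRCh38: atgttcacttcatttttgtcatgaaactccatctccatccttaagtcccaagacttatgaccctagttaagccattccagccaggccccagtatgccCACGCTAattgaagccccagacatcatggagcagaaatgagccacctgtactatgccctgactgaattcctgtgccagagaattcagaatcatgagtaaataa
UGT1A6, chr2:233691403-233691602, plus strand, GRCh38: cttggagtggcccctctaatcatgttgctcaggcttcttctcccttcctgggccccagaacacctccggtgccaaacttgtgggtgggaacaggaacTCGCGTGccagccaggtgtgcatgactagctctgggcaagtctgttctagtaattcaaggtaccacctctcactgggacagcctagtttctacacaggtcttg

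**Figure D1:**
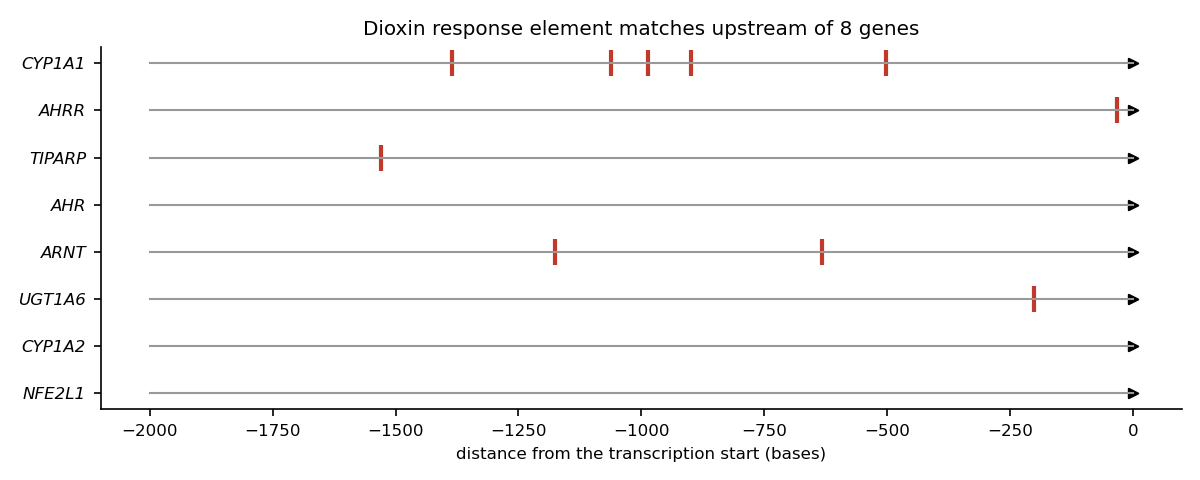
Positions of the dioxin response element TNGCGTG on either strand (red marks) in the 2000 bases before the first listed RefSeq start of 8 genes, with the distance from the start in bases on the horizontal axis and an arrow at the start. CYP1A1 has 5 marks, ARNT has 2, AHRR, TIPARP and UGT1A6 have 1 each, and AHR, CYP1A2 and NFE2L1 have none.

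A match to these letters describes the sequence and not binding of the receptor, which was not measured. CYP1A1 and CYP1A2 lie next to each other on chromosome 15 and are transcribed away from each other, so the 5 copies lie between their starts.

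Treatment with CJ28 was followed by higher RNA of 5 of the 10 genes, CYP1A1, TIPARP, AHRR, AHR and CYP1B1. Of these, CYP1B1 entered the test only through its CJ28 samples, which limits what its call can show. CYP1A1 rose by far the most, from under 1 TPM to above 60 TPM. ARNT and NFE2L1 did not pass the test, and CYP1A2, ALDH3A1 and UGT1A6 were too low to be tested. Over all 16815 tested genes, 57.0% differed between CJ28 and VEH in either direction and 19.9% were higher in CJ28, so a call alone sets a gene little apart in this comparison. A stricter rule, a rise above 1.5 on the log2 scale with an unadjusted p under 0.01, held for 0.702% of tested genes, and CYP1A1, TIPARP and both AHRR entries were among them. In RNA from whole cultures, fewer cells of a kind and less RNA per cell cannot be told apart. Fold changes are on the scale log2(TPM + 0.1), which understates the change of genes near 0.

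**Figure D2:**
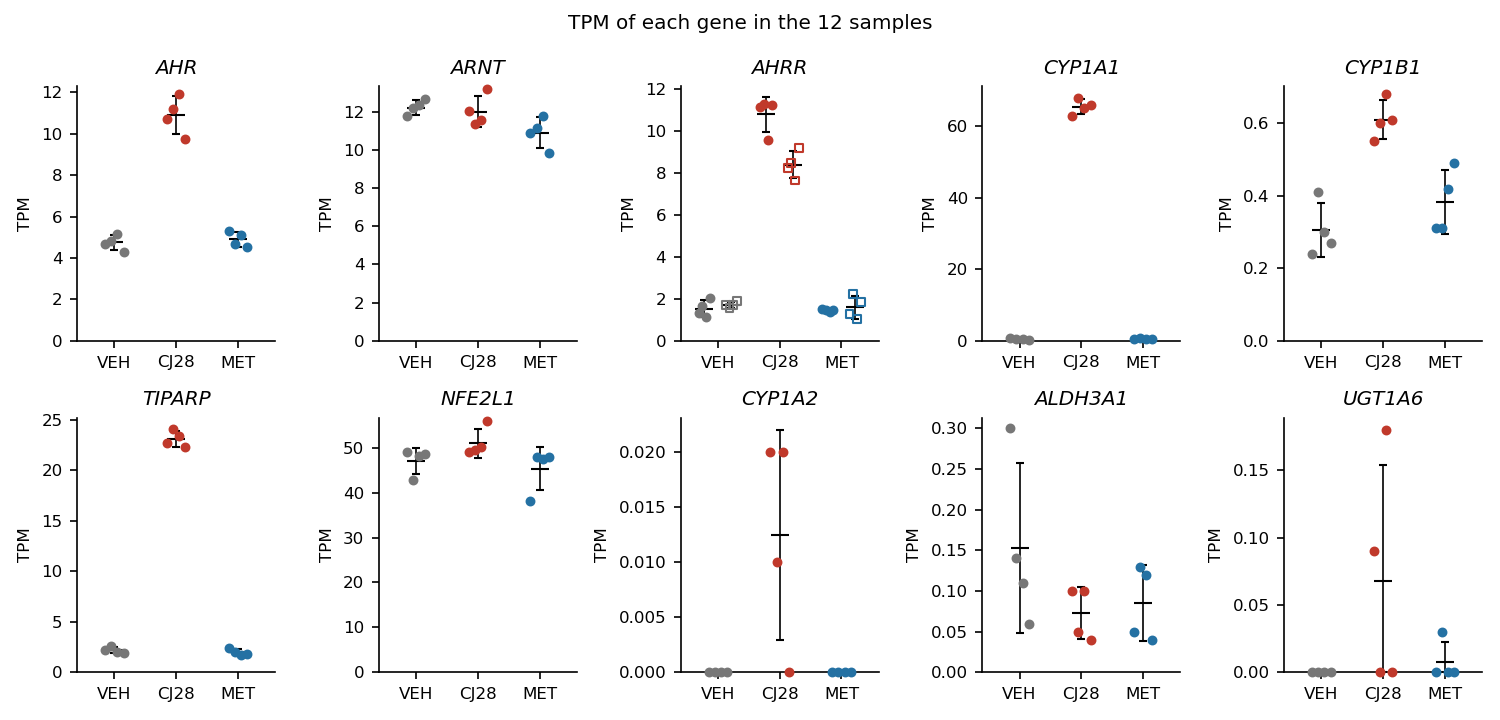
TPM of the 10 genes in each of the 12 samples (points; vertical axes in TPM from 0, with a different scale in each panel), with the group mean and SD as a black dash and bar, n = 4 per group; the lower bar stops at 0. In the AHRR panel filled circles stand for ENSG00000286169.1 and open squares for ENSG00000063438.17. For AHR, AHRR, CYP1A1 and TIPARP all 4 CJ28 samples lie above all VEH and MET samples. The same holds for CYP1B1, where it follows from the filter, which CYP1B1 passed through its CJ28 samples alone. The share of all tested genes with such a separation was not counted.

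AHR, the receptor itself (chr7:16916359-17346152, plus strand), was present in vehicle-treated cells at a moderate level. The 4 VEH samples had 4.69, 4.84, 5.18 and 4.31 TPM, the 4 CJ28 samples 10.72, 11.17, 11.92 and 9.73 TPM, and the 4 MET samples 5.30, 4.67, 5.09 and 4.54 TPM. Every CJ28 sample was above every VEH and MET sample, while the VEH and MET samples overlapped. The mean rose from 4.75 ± 0.361 TPM in VEH to 10.9 ± 0.915 TPM in CJ28 (SD, n = 4), a ratio of 2.29. The log2 fold change was 1.18 (standard error 0.0767, adjusted p = 5.34e-08 by limma), which placed AHR at rank 297 of the tested genes counted from the largest rise. The lncRNA AC073332.1, which runs opposite to AHR over 329049 bases, had 0.287 ± 0.11 TPM in VEH and 0.532 ± 0.0695 TPM in CJ28 (SD, n = 4).

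ARNT (chr1:150809713-150876708, minus strand), which the receptor needs as its partner on DNA, stayed near 12 TPM. The samples had 11.75, 12.18, 12.36 and 12.66 TPM in VEH, 12.04, 11.36, 11.54 and 13.17 TPM in CJ28, and 10.86, 11.16, 11.77 and 9.82 TPM in MET. CJ28 and VEH samples overlapped, and the MET samples lay at the lower end with 1 of 4 above the lowest VEH sample. For CJ28 against VEH the log2 fold change was -0.0266 (95% interval -0.16 to 0.106, adjusted p = 0.734 by limma), and it had the opposite sign, 0.125 and 0.111, after median-of-ratios scaling and after leaving out abundant structural RNAs such as RN7SL1. The receptor and its partner thus had a mean of 4.75 and 12.2 TPM in VEH and of 10.9 and 12.0 TPM in CJ28, where their samples overlapped.

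AHRR, a relative of the receptor that competes with it for ARNT, rose under both of its identifiers. ENSG00000286169.1 (chr5:271670-438291) had 1.31, 1.66, 1.15 and 2.04 TPM in VEH, 11.14, 11.29, 9.58 and 11.27 TPM in CJ28, and 1.51, 1.47, 1.38 and 1.49 TPM in MET. ENSG00000063438.17 (chr5:321759-435110) had 1.70, 1.57, 1.73 and 1.91 TPM in VEH, 8.26, 8.47, 7.65 and 9.21 TPM in CJ28, and 1.27, 2.24, 1.06 and 1.85 TPM in MET. In both entries the CJ28 samples lay far above all others and VEH and MET overlapped. Their log2 fold changes for CJ28 against VEH were 2.76 (standard error 0.138, adjusted p = 4.49e-09 by limma) and 2.22 (standard error 0.179, adjusted p = 3.88e-07), at ranks 24 and 41.

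The entries share 113352 bases on the plus strand, so the division of reads between them is uncertain and their sum is the safer measure. The sum was 3.27 ± 0.477 TPM in VEH, 19.2 ± 1.4 TPM in CJ28 and 3.07 ± 0.567 TPM in MET (SD, n = 4). CJ28 and VEH sums did not overlap and had a ratio of 5.88 (two-sided exact permutation p = 0.0286, the smallest that 4 against 4 samples can give). The longer entry begins inside PDCD6, a calcium-binding protein gene that it overlaps by 43305 bases on the same strand. PDCD6 had 54.0 ± 1.18 TPM in VEH and 71.0 ± 2.79 TPM in CJ28 (SD, n = 4), a log2 fold change of 0.392. AC010442.3, a processed pseudogene within AHRR on the same strand, had 0.22 ± 0.184 TPM in VEH and 1.39 ± 0.233 TPM in CJ28 (SD, n = 4). Its log2 fold change of 2.36 was the highest of the 13 other tested genes within 250 kb of AHRR. Of these, 5 were higher and 2 lower in CJ28, beside 57.0% of all tested genes called and 19.9% higher.

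CYP1A1, the P450 enzyme that oxidizes many aromatic ligands of the receptor, had the largest rise of all tested genes. On chromosome 15 (chr15:74719542-74725536, minus strand) it had 0.71, 0.61, 0.50 and 0.39 TPM in VEH and 0.55, 0.69, 0.56 and 0.52 TPM in MET. In CJ28 it had 62.90, 67.94, 65.16 and 65.91 TPM. The CJ28 samples differed among themselves by little, with a mean of 65.5 ± 2.08 TPM against 0.552 ± 0.138 TPM in VEH (SD, n = 4), a ratio of means of 119. The log2 fold change was 6.68 (95% interval 6.39 to 6.96, adjusted p = 1.92e-12 by limma), rank 1 of 16815. In VEH 15841 genes of the table had a higher mean than CYP1A1, and in CJ28 600 had.

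CYP1A2, the sister enzyme next to CYP1A1 (chr15:74748845-74756607, plus strand) and mainly a liver gene, was listed at 0 in all VEH and MET samples. The CJ28 samples had 0.02, 0.01, 0.02 and 0.00 TPM, at the resolution of the table. The groups overlapped at 0 (exact permutation p = 0.143 for CJ28 against VEH), and no fold is given against a group at 0. The neighbouring genes moved in both directions. Of 14 tested genes within 250 kb of CYP1A1, 5 were higher and 5 lower in CJ28 than in VEH. Over all tested genes 57.0% were called in this comparison and 19.9% were higher. The log2 fold changes of these neighbours ran from -1.72 to 0.80 (CLK3), below that of CYP1A1.

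CYP1B1 (chr2:38066973-38109902, minus strand), a P450 enzyme of steroid-forming tissues that also oxidizes estrogens, rose from a low level. The samples had 0.24, 0.41, 0.30 and 0.27 TPM in VEH, 0.55, 0.60, 0.68 and 0.61 TPM in CJ28, and 0.31, 0.31, 0.42 and 0.49 TPM in MET. The CJ28 samples did not overlap with either other group. CYP1B1 passed the filter through these samples alone, so this separation follows from the filter and is no separate support. The mean was 0.305 ± 0.0742 TPM in VEH and 0.61 ± 0.0535 TPM in CJ28 (SD, n = 4), with a log2 fold change of 0.82 (95% interval 0.389 to 1.26, adjusted p = 0.00362 by limma). With a pseudocount of 1 in place of 0.1 the log2 fold change was 0.304, and without structural RNAs it was 1.06, both still called. The fit without a filter, which is free of that selection, gave 0.824 (adjusted p = 0.00662 by limma). CYP1B1-AS1, transcribed from the other strand over 36456 bases of the gene, had 1.84 ± 0.13 TPM in VEH and 2.26 ± 0.233 TPM in CJ28 (SD, n = 4), more than CYP1B1 itself. The library kit marks strand, but strand use in the quantification is not given in the sources used here, so reads of these partners may not be fully separated.

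TIPARP (chr3:156673235-156706770, plus strand), which attaches ADP-ribose to the receptor and lowers its activity, had the largest rise among these genes after CYP1A1. The samples had 2.19, 2.63, 2.05 and 1.94 TPM in VEH, 22.69, 24.10, 23.43 and 22.28 TPM in CJ28, and 2.39, 2.04, 1.73 and 1.86 TPM in MET. The CJ28 samples lay closely together and far above the overlapping VEH and MET samples. The mean rose from 2.2 ± 0.303 to 23.1 ± 0.806 TPM (SD, n = 4), a ratio of 10.5 and a log2 fold change of 3.34 (95% interval 3.12 to 3.57, adjusted p = 5.85e-11 by limma), rank 15. Within 250 kb of TIPARP 1 of 4 other tested genes was higher, SSR3, with a log2 fold change of 0.586, beside 19.9% of all tested genes.

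ALDH3A1 (chr17:19737984-19748943, minus strand), an aldehyde dehydrogenase induced through the receptor in liver cells, did not exceed 0.30 TPM. It had 0.30, 0.14, 0.11 and 0.06 TPM in VEH, 0.10, 0.05, 0.10 and 0.04 TPM in CJ28, and 0.05, 0.13, 0.12 and 0.04 TPM in MET. The groups overlapped, and CJ28 and VEH were not separated by an exact permutation test (p = 0.143).

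UGT1A6 (chr2:233691607-233773300, plus strand), which couples phenols to glucuronic acid, was listed at 0 in all VEH samples. The CJ28 samples had 0.09, 0.00, 0.18 and 0.00 TPM, and among the MET samples 1 had 0.03 TPM and the others 0. The exact permutation p for CJ28 against VEH was 0.429. The UGT1A genes share their last exons, so reads can be split among them, but all 9 genes of the locus stayed outside the filter. Their highest group mean was 0.128 ± 0.0499 TPM, of UGT1A8 in CJ28 (SD, n = 4), against 0.02 ± 0.0163 TPM in VEH. A fit without the filter, which could test these 3 low genes, called none of CYP1A2 (adjusted p = 0.11), ALDH3A1 (adjusted p = 0.298) and UGT1A6 (adjusted p = 0.162) for CJ28 against VEH by limma.

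NFE2L1 (chr17:48048329-48061545, plus strand), a membrane-bound factor that raises proteasome genes under stress, was the most abundant of the 10 genes in VEH and MET. The samples had 49.10, 42.83, 48.10 and 48.53 TPM in VEH, 48.92, 49.36, 50.07 and 55.81 TPM in CJ28, and 38.21, 47.85, 47.40 and 47.85 TPM in MET. The CJ28 and VEH samples overlapped narrowly, and in each group a single sample stood apart from the other 3. NFE2L1 had a log2 fold change of 0.115 between CJ28 and VEH (95% interval -0.0493 to 0.278, adjusted p = 0.215 by limma). The value was 0.267 (adjusted p = 0.0116) after median-of-ratios scaling and 0.252 (adjusted p = 0.0252) without structural RNAs, so its call depends on the scaling.

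**Figure D3:**
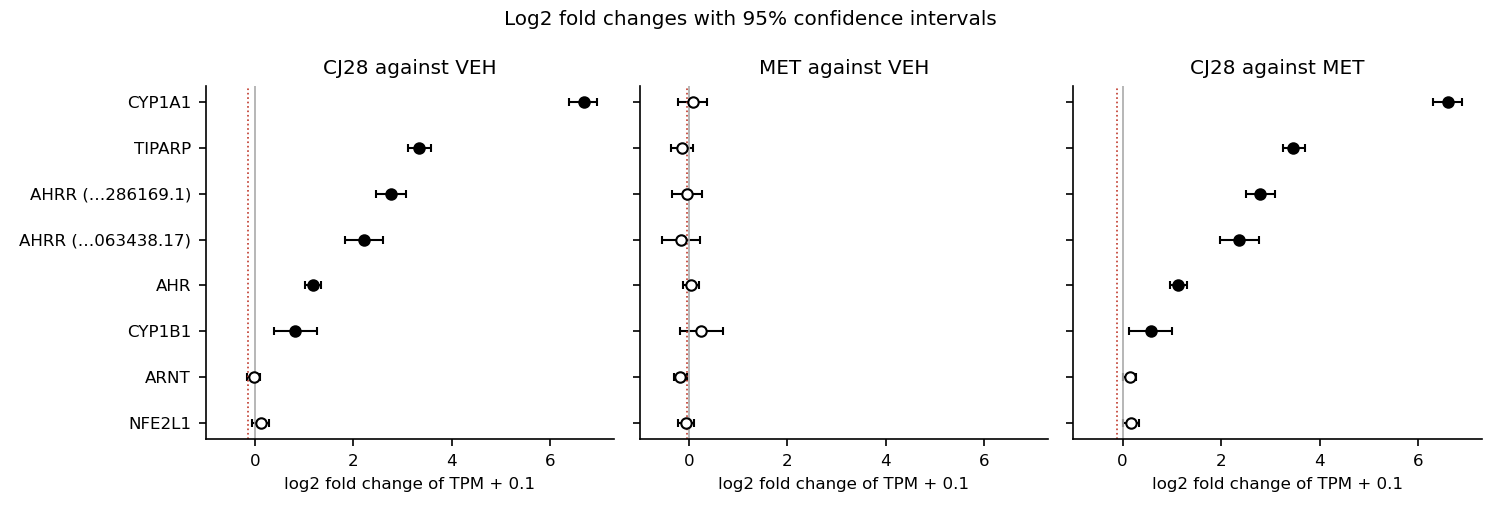
Log2 fold changes of TPM + 0.1 for the 8 tested entries (horizontal axis) in the 3 comparisons, with 95% confidence intervals from limma as bars. Filled points have an adjusted p under 0.05, the grey line marks 0 and the dotted red line the median of all tested genes. CYP1A1 stands at 6.68 and 6.60 against VEH and MET, and 0 of 8 points are filled for MET against VEH.

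With MET, 0 of the 8 tested entries differed from VEH by limma at an adjusted p under 0.05, beside 0.00595% of all tested genes. At an unadjusted p under 0.05, 1 of the 8 entries passed, ARNT, with a log2 fold change of -0.168 (95% interval -0.301 to -0.0347, unadjusted p = 0.0177, adjusted p = 0.933 by limma), and 874 of all 16815 genes passed. The MET and VEH samples overlapped in each of the 11 entries, which could not be otherwise for CYP1A2, at 0 in all of them. The share of all genes that overlapped in this way was not counted. The intervals limit how large a change could be. They were -0.211 to 0.368 for CYP1A1, -0.354 to 0.0941 for TIPARP, -0.124 to 0.21 for AHR and -0.184 to 0.687 for CYP1B1, on the log2 scale.

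The inhibitors were also compared directly, at the same dose of 30 µM and the same 24 h. Of all tested genes 55.5% differed between CJ28 and MET and 20.9% were higher in CJ28. The same 6 entries that were higher than in VEH were higher than in MET. CYP1B1 was among them through its CJ28 samples alone, since 0 of the MET samples reached 0.5 TPM. For CYP1B1 the fit without a filter, which is free of that selection, gave 0.572 (adjusted p = 0.0489 by limma). The log2 fold change was 6.60 for CYP1A1, 3.47 for TIPARP, 2.8 and 2.37 for the AHRR entries, 1.13 for AHR and 0.57 for CYP1B1. The call of CYP1B1 was the least secure, since its adjusted p of 0.0279 by limma became 0.0539 to 0.0738 when CJ28 replicate 2, 3 or 4 or MET replicate 1 or 2 was left out. NFE2L1 samples of CJ28 and MET did not overlap (exact permutation p = 0.0286), with a log2 fold change of 0.175 (95% interval 0.0114 to 0.339, adjusted p = 0.0657 by limma). ARNT had a log2 fold change of 0.141 (95% interval 0.00802 to 0.274, adjusted p = 0.0679 by limma). Both were called after median-of-ratios scaling, at 0.297 and 0.262, and without structural RNAs, at 0.303 and 0.269, and ARNT also without MET replicate 3 (adjusted p = 0.0318).

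The order of the genes by level differed between treatments. In VEH and MET the order by mean TPM, with the AHRR entries kept apart, was NFE2L1, ARNT, AHR, TIPARP, AHRR, CYP1A1, CYP1B1 and ALDH3A1, followed by UGT1A6 and CYP1A2. By the sum of its entries AHRR lay above TIPARP instead, without overlap, at 2.88 to 3.95 against 1.94 to 2.63 TPM in VEH and at 2.44 to 3.71 against 1.73 to 2.39 TPM in MET. The samples of the AHRR entries overlapped with each other in VEH and MET. TIPARP overlapped with ENSG00000286169.1 in VEH and with ENSG00000063438.17 in MET, and in VEH CYP1B1 overlapped with both CYP1A1 and ALDH3A1. In CJ28 CYP1A1 came first, with no sample as low as the highest of NFE2L1, and TIPARP came next after NFE2L1, above ARNT. AHR overlapped there with ARNT and with the higher AHRR entry, while the AHRR sum, at 17.23 to 20.48 TPM, lay between TIPARP and ARNT without overlap. The level of CYP1A1 thus went from 0.552 to 65.5 TPM while its neighbour in the order, CYP1B1, went from 0.305 to 0.61 TPM.

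**Figure D4:**
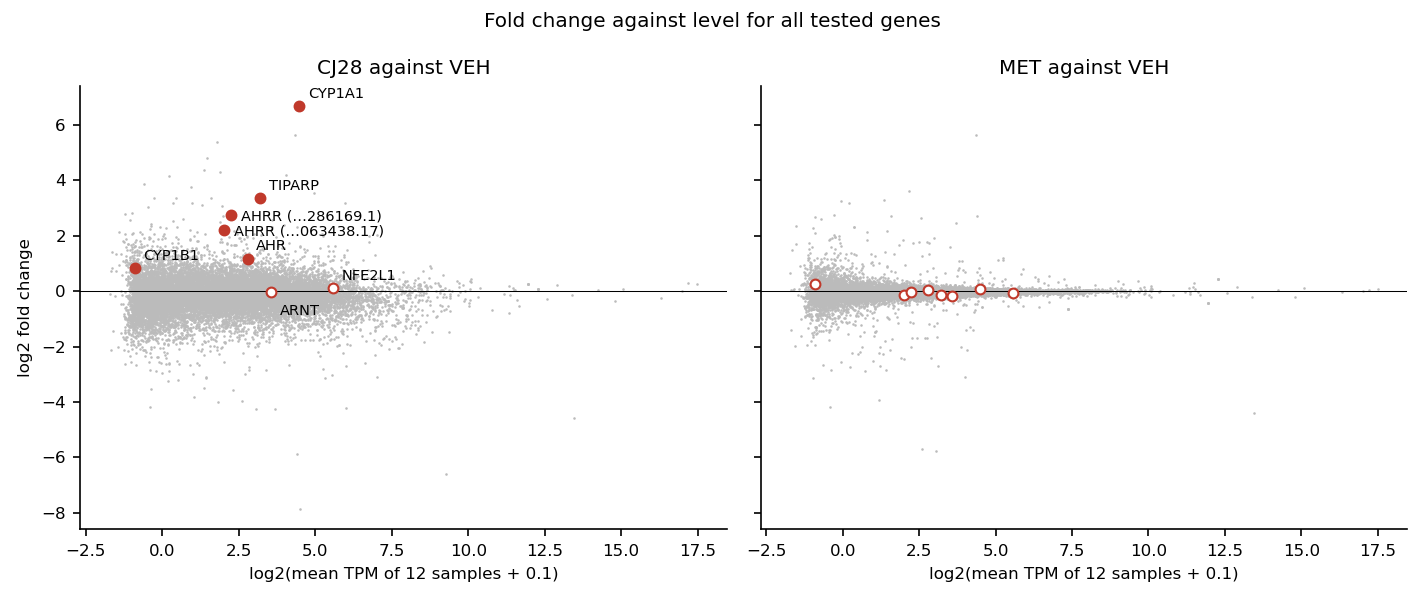
Log2 fold change (vertical axis) against the mean level over the 12 samples as log2(TPM + 0.1) (horizontal axis) for the 16815 tested genes (grey), with the 8 entries of the AHR battery as red circles, filled where the adjusted p was under 0.05. For CJ28 against VEH CYP1A1 is the highest point of the plot and ARNT and NFE2L1 lie near 0. For MET against VEH the 8 entries lie between -0.168 and 0.252.

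Genes whose changes from VEH were most like those of CYP1A1, TIPARP and CYP1B1 were sought among 13303 or 13304 genes with a mean of at least 1 TPM, by the root mean square difference over the 8 treated samples on the log2 scale. No gene came within 0.5 of CYP1A1, and the nearest were GDF15 at 1.04, DMGDH at 2.1 and TRIB3 at 2.23. TIPARP was closest to TRIB3 at 0.195, DDIT3 at 0.233 and NIBAN1 at 0.293, 3 of the 5 genes within 0.5. TRIB3 and DDIT3, which are known from the response to stress of protein synthesis, had 6.8 ± 0.216 and 16.8 ± 0.316 TPM in VEH and 79.9 ± 2.12 and 155.0 ± 8.29 TPM in CJ28 (SD, n = 4). For CYP1B1 2542 genes came within 0.5, led by GMPPA at 0.118, AC022137.3 at 0.128 and COL4A4 at 0.155.

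The other genes of the pathway, in lists that are read as counts beside the median of -0.134 over all tested genes, did not share one direction. Over all tested genes 57.0% were called for CJ28 against VEH and 19.9% were higher, so counts near these shares say little about a list. Whether any list departs from these shares was not tested. Chaperones that hold the receptor in the cytosol were lower in CJ28. HSP90AA1 fell from 101 ± 16.3 to 50.0 ± 6.85 TPM (log2 fold change -1.01), HSP90AB1 from 218 ± 5.6 to 148 ± 5.13 TPM (-0.563) and the cochaperone PTGES3 from 75.7 ± 5.25 to 53.8 ± 3.71 TPM (-0.493; SD, n = 4). These 3 calls stood under both other scalings.

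Of 9 other genes of the receptor's family, the bHLH-PAS proteins, 6 were tested, 1 rose and 2 fell in CJ28, with a median of -0.035. ARNT2, a relative of ARNT, fell from 3.13 ± 0.335 to 2.26 ± 0.24 TPM (-0.449 on the log2 scale). The clock gene CLOCK fell from 11.6 ± 0.845 to 8.99 ± 0.679 TPM (-0.366). HIF1A, which competes for ARNT as the oxygen-sensing factor, rose slightly from 113 ± 1.96 to 119 ± 2.69 TPM (0.073, adjusted p = 0.0384 by limma).

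Of 13 further known targets of the receptor 6 were tested, of which 2 rose and 2 fell, with a median of 0.0418. NQO1, a quinone reductase that also responds to oxidative stress, rose from 66.2 ± 1.96 to 93.2 ± 4.68 TPM (0.492). The glutathione transferases GSTA1 and GSTA2, near-identical copies that may share reads, fell from 70.8 ± 1.18 to 32.5 ± 1.63 TPM (-1.12) and from 1.26 ± 0.222 to 0.525 ± 0.048 TPM (-1.11). NFE2L2, the oxidative stress regulator NRF2, rose from 36.3 ± 3.02 to 43.5 ± 0.75 TPM (0.266) and is also counted in the next list. SLC7A5, an amino acid transporter, was called under both other scalings but not on the values as deposited.

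NFE2L1 belongs to the CNC factors, which bind DNA with small MAF proteins. Of 12 genes of this list, NFE2L1 and NFE2L2 included, 11 were tested, 6 rose and 3 fell in CJ28, with a median of 0.266. MAFF and MAFG, which are small MAF genes, rose from 0.855 ± 0.058 to 2.26 ± 0.283 TPM (1.3) and from 7.54 ± 0.252 to 16.5 ± 0.745 TPM (1.11). NFE2L3 fell from 10.4 ± 1.26 to 5.65 ± 0.719 TPM (-0.874). With median-of-ratios scaling 7 rose and 2 fell, NFE2L1 joining and DDI2, a protease that activates NFE2L1, no longer passing.

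The enzymes that pass electrons to P450 proteins did not rise. POR, the main donor of CYP1A1, had 56.3 ± 2.43 TPM in VEH and 53.3 ± 4.63 TPM in CJ28 (log2 fold change -0.0804, adjusted p = 0.253 by limma, with the opposite sign under both other scalings). CYB5R3 fell by 0.932 and CYB5A by 0.298 on the log2 scale. Of 7 enzymes of tryptophan breakdown, which form or use kynurenine, a natural ligand of the receptor, or act beside it, 2 were tested. IDO1, which acts on tryptophan, fell by 0.904 from 0.932 ± 0.34 TPM, a level outside the naming rule.

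Among 10 hypoxia genes driven by HIF1A with ARNT, 7 were tested, 1 rose and 4 fell, with a median of -0.371. LDHA fell from 90.2 ± 6.33 to 40.7 ± 2.21 TPM (-1.15) and SLC2A1, the glucose carrier, from 29.8 ± 1.97 to 20.8 ± 2.25 TPM (-0.515). VEGFA rose from 38.9 ± 2.02 to 56.7 ± 3.4 TPM (0.539). Under both other scalings 2 rose and 2 fell, since BNIP3 and PDK1 no longer passed and NDRG1 did. With MET 0 genes were called in any of these lists.

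**Figure D5:**
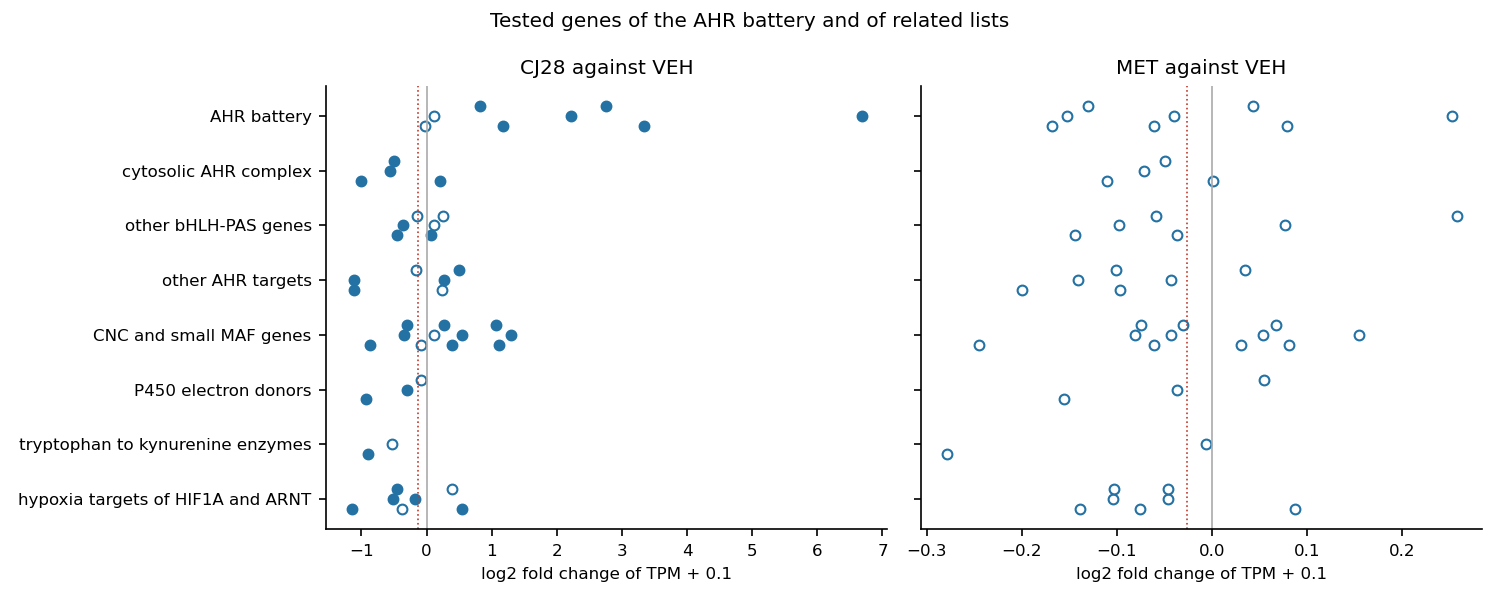
Log2 fold changes of TPM + 0.1 (horizontal axis; the scales of the panels differ) for the tested genes of the AHR battery and of 7 related lists, each point 1 table entry, filled where the adjusted p was under 0.05; the dotted red line marks the median of all tested genes. For CJ28 the AHR battery runs from -0.0266 to 6.68, and for MET no point is filled. The list labelled tryptophan to kynurenine enzymes also holds enzymes that use kynurenine.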

How the data were processed

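RNA-seq was carried out on 12 NCI-H295R cultures, 4 each of VEH, CJ28 and MET, grouped and numbered by their sample titles. The deposited values are TPM per gene, which the authors made, per the submitters' processing notes, with cutadapt 2.8, STAR 2.7.10b and RSEM 1.3.3 on GRCh38. RSEM divides reads that match several genes, so values of overlapping or near-identical genes are uncertain. The study's own tests used DESeq2 on counts, which were not analysed here. TPM keeps no depth, so a TPM of 0 need not mean absence.

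Here log2(TPM + 0.1) was fitted with limma 3.58.1 in R 4.3.3 (eBayes with a trend, 3 groups in 1 fit, no covariates) for the 16815 genes in which 4 or more samples reached 0.5 TPM. P-values are two-sided, adjusted by the Benjamini-Hochberg method over all tested genes, and called under 0.05. Single values were compared by exact permutation of group means in Python 3.11.15 with scipy 1.17.1, for which 0.0286 is the smallest p. Alternatives were pseudocounts of 1 and 0.01, no filter, median-of-ratios scaling, a filter on a mean TPM of 1 or more, TPM recomputed without RN7SL1, RN7SL2, RN7SK, MT-RNR1 and MT-RNR2, only the 2 groups compared, a replicate block, no trend, and leaving out each sample in turn.

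The 10 genes and all lists were chosen with earlier results of these data known. From each list up to 3 called genes with the largest change and a group mean of at least 1 TPM are named, together with genes that overlap a member and, for CYP1A1, TIPARP and CYP1B1, the 3 most similar genes. The scan of 2000 bases, the neighbours within 250 kb and the sum of the AHRR entries were chosen after values had been seen. Promoter windows are those of RefSeq, gene positions those of the GENCODE annotation on GRCh38, and BMAL1 was matched by gene identifier. A result of the chaperone list is not reported here. Figures were drawn with matplotlib 3.10.9.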

Additional observations from a re-analysis of the deposited data

Results flagged for a closer look

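In 5 of the 33 sets of 4 samples examined, 1 sample lay far from the other 3, where chance gives about 1 in 20 sets. The sets include the sums of the AHRR entries beside the entries themselves, so they are not independent. NFE2L1 had such a sample in each group, VEH replicate 2 at 42.83 TPM (others 48.1 to 49.1), CJ28 replicate 4 at 55.81 TPM (others 48.92 to 50.07) and MET replicate 1 at 38.21 TPM (others 47.4 to 47.85). AHRR under ENSG00000286169.1 had 9.58 TPM in CJ28 replicate 3 (others 11.14 to 11.29), still far above all VEH and MET samples. UGT1A6 had 0.03 TPM in MET replicate 2, while the others were listed at 0. Such a set is flagged whatever the size of its single value, so the chance rate does not apply to it.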

How the results depend on the processing

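For CJ28 against VEH, AHR, both AHRR entries, CYP1A1, CYP1B1 and TIPARP were called with the same direction under each alternative, except that CYP1B1 was not tested with a mean TPM of at least 1. CYP1B1 passed the filter of 0.5 TPM through its CJ28 samples alone. Among the alternatives that tested it, only the fit without a filter is free of that selection. The log2 fold change ran from 5.42 to 6.95 for CYP1A1 and from 0.304 to 1.06 for CYP1B1. With any 1 sample left out 6 entries were called (0 for MET against VEH, 5 to 7 for CJ28 against MET). The replicate block changed no call of these genes, with 6, 0 and 6 entries called in the 3 comparisons and 9546 genes in all for CJ28 against VEH. Over all tested genes the deviations of samples with equal replicate numbers correlated at -0.124 to 0.0394, so no broad shared deviation was seen. Such correlations cannot exclude that samples were paired, or a shared deviation of single genes. ARNT for CJ28 against VEH turned to 0.125 with median-of-ratios scaling and 0.111 without structural RNAs. For MET against VEH, where no entry was called, the sign turned for NFE2L1 (0.0191 without MET replicate 1, range -0.106 to 0.0191), ENSG00000063438.17 of AHRR (0.0147 without MET replicate 3, range -0.323 to 0.0147), ENSG00000286169.1 of AHRR (0.0047 and 0.0987 without VEH replicate 2 and 4, range -0.16 to 0.0987), CYP1A1 (-0.051 without VEH replicate 4, range -0.051 to 0.191) and AHR (-0.00249 without VEH replicate 4, range -0.00249 to 0.0841). The 1 gene called in all for MET against VEH became 0 with pseudocounts of 1 and 0.01 and with a mean TPM of at least 1, and 5 without a filter, and it was 1 to 2 with a sample left out. The causes were not tested. Over all member values 481 kept direction and call, 8 turned sign, 7 gained and 5 lost the call. The depth behind single low values is not known from TPM.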
